A study of Mus musculus with 6 samples.

Results

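Cytochrome P450 (CYP) enzymes were examined in DFAT cells and in mature adipocytes (AC), the cell type from which such cells are derived. The members were all probe sets annotated with one gene symbol made of Cyp, a family number, one letter and a member number, a rule that leaves out Cyp51. This gave 93 of the 45037 probe sets tested, for 70 of the 18193 genes with one symbol. Where a gene had several probe sets, the one brightest on average over the 6 arrays stood for it. DFAT (3 arrays) is a proliferating preadipocyte line obtained by ceiling culture from mature adipocytes of GFP transgenic mice and was grown to semiconfluence. AC (3 arrays) were primary adipocytes isolated from mouse fat tissue, for which neither the transgene nor strain, age or fat depot is stated. The study profiled DFAT cells and AC on Affymetrix whole-genome mouse arrays. Its paper compared hepatocytes and resident liver stem cells with each of them. Here DFAT cells are compared with AC, and the values are RMA values on the log2 scale. No source says whether arrays of one group stem from different animals or cultures, so p-values here reflect no more than the spread among the arrays, which may be technical.

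CYP enzymes are monooxygenases that hold a haem iron and insert 1 oxygen atom into their substrates. Most sit in the endoplasmic reticulum and receive electrons from P450 reductase and cytochrome b5, and a few mitochondrial forms receive them from ferredoxin. Families 1 to 3 oxidize drugs, pollutants and arachidonic acid, family 4 oxidizes mainly fatty acids, and the higher families make or clear steroids, bile acids, vitamin D and retinoic acid. The liver is the best known site, where they detoxify compounds, and fat tissue carries a smaller set.

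Of the 70 genes, 21 (30.0%) passed the test as lower in DFAT cells and 5 (7.14%) as higher, at an adjusted p under 0.05 from limma. Of all 18193 genes, 23.8% were called lower and 22.6% higher, and 46.4% were called in either direction. The median difference, DFAT cells minus AC, was -0.28 for the P450 genes and -0.10 for all genes. At least 4-fold lower were 8 P450 genes, against 6.65% of all genes, and 1 was at least 4-fold higher, against 4.78%. Of the P450 calls, 19.2% were higher in DFAT cells. That share was 5.66% after centring on reference genes, with 50 genes lower, and 35.3% after centring on the hybridization controls, with 11 lower. It was 48.6%, 22.7% and 71.8% for the calls of all genes. The median difference of all genes was -0.49 after the first centring and 0.36 after the second. Before centring, 8 of the 15 measured reference genes were themselves called higher in DFAT cells and 2 lower, with a median difference of 0.47.

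Most P450 genes were dim on these arrays. Background level was set on each array as the 95th percentile of 117 probe sets for genes of sense organs and germ cells, and a gene is called at background level in a group if none of the 3 arrays exceeded it. That level was 5.66 to 5.82 on the DFAT arrays and 5.79 to 6.08 on the AC arrays. It measures signal only and makes no call of detection. At that level in DFAT cells were 61 of the 70 P450 genes (87.1%), against 54 (77.1%) in AC, and 51 were so in both. For all genes the shares were 45.7% in DFAT cells and 42.5% in AC. Above the level on all 3 arrays lay 5 P450 genes in DFAT cells (7.14%) and 12 in AC (17.1%), where 51.4% and 50.3% of all genes did. These are 13 genes, since 4 were above it in both groups. Of the 21 P450 genes called lower, 10 were at background level in both groups. Of the 90 genes that set the level, 12 were themselves called lower and 2 higher, against 23.8% and 22.6% of all genes.

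The 13 genes are described by name, which is a choice by signal and not a test. The 9 that fell were Cyp2e1, Cyp2f2, Cyp4v3, Cyp4b1, Cyp27a1, Cyp2j9, Cyp4f13, Cyp2d22 and Cyp2j6, and the 4 that rose were Cyp1b1, Cyp20a1, Cyp4f16 and Cyp26b1. The DFAT and AC arrays did not overlap in 36 of the 70 P450 genes, these 13 among them, against 60.0% of all genes. The array of AC replicate 1 stood apart from the other AC arrays, with a Pearson correlation across probe sets of 0.971 and 0.969, against 0.991 between those. All 13 calls held without it. Of the 4 rises, 2 did not hold after centring on the reference genes, Cyp4f16 (difference 0.30, adjusted p = 0.123 from limma) and Cyp26b1 (0.13, adjusted p = 0.402 from limma).

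**Figure D1:**
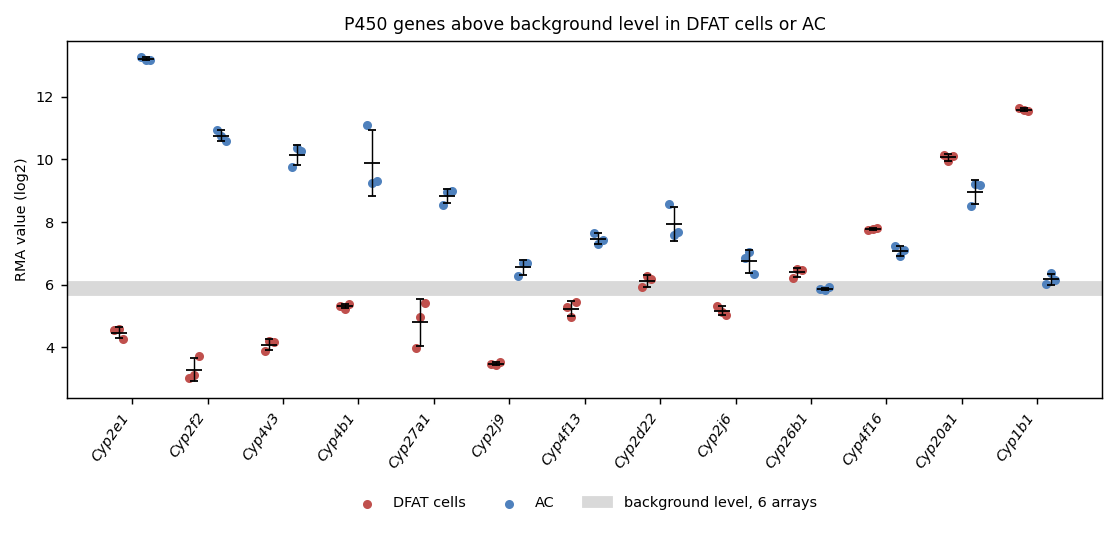
RMA values (log2) of the 13 P450 genes above background level on all 3 arrays of DFAT cells or of AC. Each point is 1 array, black marks show group means with SD, and background levels (5.66 to 6.08 over the 6 arrays) are shaded grey. The DFAT points of Cyp2e1, Cyp2f2, Cyp4v3, Cyp4b1, Cyp27a1, Cyp2j9, Cyp4f13 and Cyp2j6 lie under the band, and those of Cyp1b1 and Cyp20a1 lie far above it.

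The bases just before the transcription start are shown for the 6 of these genes with the largest differences, the gene that rose most and the 5 that fell most. They are RefSeq sequences of GRCm38.p6, 250 bases ending at the last base before the start, written 5′ to 3′ on the strand of the gene. Capitals mark matches on either strand to 5 short motifs: GCGTG, the core that the aryl hydrocarbon receptor (AHR) binds with ARNT, AGGTCA, a half-site of nuclear receptors, TTGCNNAA, a form of the C/EBP site, TATAAA, the TATA box, and GGGCGG, the Sp1 box. No 2 matches overlap. Cyp1b1 lies at chr17:79715062-79715311 (minus strand), Cyp2e1 at chr7:140763569-140763818 (plus), Cyp2f2 at chr7:27119705-27119954 (plus), Cyp4v3 at chr8:45333164-45333413 (minus), Cyp4b1 at chr4:115647722-115647971 (minus) and Cyp27a1 at chr1:74713285-74713534 (plus).
Cyp1b1: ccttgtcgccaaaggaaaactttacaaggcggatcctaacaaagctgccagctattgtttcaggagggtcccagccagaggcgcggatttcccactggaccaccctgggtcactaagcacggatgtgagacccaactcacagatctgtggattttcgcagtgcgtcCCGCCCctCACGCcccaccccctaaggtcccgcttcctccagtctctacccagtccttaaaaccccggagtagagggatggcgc
Cyp2e1: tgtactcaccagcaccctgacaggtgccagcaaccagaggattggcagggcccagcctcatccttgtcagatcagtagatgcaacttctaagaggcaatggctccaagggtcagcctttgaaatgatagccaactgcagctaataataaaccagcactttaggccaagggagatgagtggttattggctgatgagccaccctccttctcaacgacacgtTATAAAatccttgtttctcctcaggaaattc
Cyp2f2: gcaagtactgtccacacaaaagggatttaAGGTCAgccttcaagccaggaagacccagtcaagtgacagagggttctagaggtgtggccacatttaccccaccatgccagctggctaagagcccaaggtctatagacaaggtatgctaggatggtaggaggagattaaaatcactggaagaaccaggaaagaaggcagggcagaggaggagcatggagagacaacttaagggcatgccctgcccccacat
Cyp4v3: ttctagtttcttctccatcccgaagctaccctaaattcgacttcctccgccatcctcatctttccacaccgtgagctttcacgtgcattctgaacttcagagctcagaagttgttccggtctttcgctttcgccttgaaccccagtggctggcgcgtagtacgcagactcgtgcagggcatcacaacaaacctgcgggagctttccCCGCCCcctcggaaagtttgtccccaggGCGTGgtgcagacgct
Cyp4b1: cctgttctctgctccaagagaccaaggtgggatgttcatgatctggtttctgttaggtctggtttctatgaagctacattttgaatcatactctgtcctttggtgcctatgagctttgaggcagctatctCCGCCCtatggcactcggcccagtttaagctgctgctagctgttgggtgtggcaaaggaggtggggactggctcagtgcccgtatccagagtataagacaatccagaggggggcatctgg
Cyp27a1: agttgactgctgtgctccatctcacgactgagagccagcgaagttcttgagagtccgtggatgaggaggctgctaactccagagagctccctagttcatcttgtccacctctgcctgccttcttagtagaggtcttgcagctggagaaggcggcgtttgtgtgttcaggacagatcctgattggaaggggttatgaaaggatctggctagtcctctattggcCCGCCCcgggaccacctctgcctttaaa

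In Cyp1b1 the capitals are an Sp1 box and an AHR core, both read on the opposite strand, at bases 84 to 79 and 76 to 72 before the start. The single match of Cyp2e1 is a TATA box at bases 31 to 26, and that of Cyp2f2 is a nuclear receptor half-site at bases 221 to 216. In Cyp4v3 an Sp1 box, read on the opposite strand, and an AHR core stand at bases 44 to 39 and 16 to 12. Cyp4b1 and Cyp27a1 each hold 1 Sp1 box, also read on the opposite strand, at bases 120 to 115 and 28 to 23. Of 32851 promoter windows of this length, 28.2% held GCGTG, 14.0% AGGTCA, 9.56% TTGCNNAA, 12.4% TATAAA and 32.7% GGGCGG. The dinucleotide CG occurred 12 times in the window of Cyp1b1 and 17 times in that of Cyp4v3, against 2 in Cyp2e1, none in Cyp2f2, 3 in Cyp4b1 and 7 in Cyp27a1. The median was 2 over the 51 P450 genes with a window and 6 over all windows. A match is a string of letters and not a measured site.

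Among families 1 to 3, leaving out Cyp2r1, which is counted below with the vitamin D enzymes, 42 genes were measured. Of these, 10 passed the test as lower and 1 as higher, that is 23.8% and 2.38%, against 23.8% and 22.6% of all genes. Cyp2e1, which oxidizes ethanol, acetone and acetaminophen, showed the largest difference of any P450 gene. Its values were 4.56, 4.58 and 4.27 in DFAT cells (replicates 1 to 3, as below) and 13.27, 13.18 and 13.18 in AC. It was thus at background level on every DFAT array and far above it on every AC array. The difference was -8.74 (95% confidence interval -9.06 to -8.42, adjusted p = 3.05e-08 from limma). With values under the background level set to that level it was -7.46, so its size depends on what lies under that level. Since the level differed between arrays, this floor gives a difference of -0.19 to any gene at background level on all 6 arrays. In bulk RNA, fewer cells that express a gene and less RNA of it per cell cannot be told apart.

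Cyp2f2, known in mouse lung for the oxidation of naphthalene, went the same way. It had 3.02, 3.12 and 3.71 in DFAT cells, against 10.94, 10.74 and 10.60 in AC. The difference was -7.47 (95% confidence interval -7.95 to -7.00, adjusted p = 1.57e-07 from limma), and -5.01 with the floor at background level. Its probe set ends in _a_at, a type that matches several transcripts of 1 gene. Cyp2f2 and 3 measured P450 genes near it, Cyp2b19, Cyp2g1 and Cyp2a12, form one chromosomal group, and of these only Cyp2f2 was above background level in a group.

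The Cyp2j subfamily makes epoxides of arachidonic acid. Cyp2j9 had 3.47, 3.43 and 3.53 in DFAT cells and 6.28, 6.68 and 6.70 in AC, a difference of -3.08 (95% confidence interval -3.44 to -2.72, adjusted p = 2.53e-06 from limma). Its AC values lay only a little above background level, and with the floor the difference was -0.80. Its neighbour Cyp2j6 had 5.33, 5.14 and 5.04 in DFAT cells and 6.86, 7.03 and 6.33 in AC, a difference of -1.57 (adjusted p = 0.000462 from limma). A second probe set of Cyp2j6, at background level in DFAT cells and above it on 2 AC arrays, differed by -2.51, and its call was lost with the floor (-0.35, adjusted p = 0.0834 from limma). The other measured genes of the cluster, Cyp2j5, Cyp2j11 and Cyp2j13, were at background level in both groups and did not pass the test.

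Cyp2d22 belongs to the subfamily that in humans oxidizes many drugs through CYP2D6. It had 5.91, 6.26 and 6.18 in DFAT cells and 8.57, 7.59 and 7.69 in AC. By this brighter probe set it was the one gene of the 9 that stayed above background level on all DFAT arrays. The difference was -1.83 (95% confidence interval -2.44 to -1.22, adjusted p = 0.000881 from limma). A second probe set differed by -1.42 and was at background level in DFAT cells. Of the 7 measured genes in the Cyp2d cluster, Cyp2d22 was the only one above background level in a group and the only one called.

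Cyp1b1, which oxidizes oestradiol and polycyclic hydrocarbons in tissues outside the liver, was the single member to rise at least 4-fold. It had 11.65, 11.57 and 11.55 in DFAT cells and 6.01, 6.36 and 6.15 in AC. The DFAT arrays were close together and the AC arrays were just above background level. The difference was 5.42 (95% confidence interval 5.09 to 5.74, adjusted p = 1.27e-07 from limma). A second probe set had 9.89, 9.69 and 9.80 in DFAT cells and 3.43, 3.78 and 4.14 in AC, a difference of 6.01. The third probe set was at background level in both groups and did not pass the test (difference 0.56, adjusted p = 0.0809 from limma).

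Cyp1a1, which AHR also induces, had 4.04, 3.46 and 3.80 in DFAT cells and 7.16, 5.80 and 5.47 in AC, above background level on 2 of the 3 AC arrays. It passed the test as lower, by -2.37 (adjusted p = 0.00222 from limma), but not with the floor at background level, where the difference was -0.59 (adjusted p = 0.103 from limma). Cyp1a2, which lies beside Cyp1a1 and activates acetaminophen in liver, had 3.77, 3.93 and 3.49 in DFAT cells and 3.87, 3.71 and 4.01 in AC. It was at background level in both groups and did not pass the test (difference -0.13, 95% confidence interval -0.51 to 0.24). Cyp2c23, an arachidonic acid epoxygenase of kidney, had 3.90, 3.81 and 3.88 in DFAT cells and 5.00, 5.98 and 6.48 in AC. Its call was also lost with the floor (difference -0.39, adjusted p = 0.053 from limma).

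Family 4 had 11 measured genes, of which 7 passed the test as lower and 1 as higher, against 23.8% and 22.6% of all genes. Of the 7, 4 were at background level in both groups. Cyp4v3, the mouse counterpart of human CYP4V2, a fatty acid hydroxylase of the eye, had 3.87, 4.22 and 4.17 in DFAT cells and 9.77, 10.36 and 10.28 in AC. The difference was -6.05 (SE 0.19, adjusted p = 2.85e-07 from limma), or -4.38 with the floor. This probe set ends in _s_at and may match other transcripts. The second, which ends in _at, had 4.57, 3.99 and 4.13 in DFAT cells and 7.68, 9.70 and 9.36 in AC, a difference of -4.68.

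Cyp4b1, an enzyme of lung and kidney that activates furans and aromatic amines, had 5.32, 5.24 and 5.38 in DFAT cells and 11.10, 9.26 and 9.30 in AC. Its AC values were the most spread of the 13 genes, with AC replicate 1 well above the others. The difference was -4.57 (95% confidence interval -5.61 to -3.53, adjusted p = 0.000109 from limma), and -3.96 without AC replicate 1. In its cluster the measured neighbours Cyp4x1, Cyp4a14 and Cyp4a31 were at background level in both groups, where Cyp4a31 passed the test as lower (difference -0.69).

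In the Cyp4f cluster, whose enzymes hydroxylate leukotrienes and long-chain fatty acids, 2 genes went in opposite directions. Cyp4f13 had 5.29, 4.97 and 5.45 in DFAT cells and 7.66, 7.31 and 7.44 in AC, a difference of -2.23 (95% confidence interval -2.63 to -1.83, adjusted p = 2.72e-05 from limma). Cyp4f16 had 7.74, 7.79 and 7.80 in DFAT cells and 7.23, 6.92 and 7.11 in AC, a difference of 0.69 (SE 0.14, adjusted p = 0.00444 from limma). The second probe set of Cyp4f16 differed by 0.80. The remaining genes of the cluster, Cyp4f14, Cyp4f15 and Cyp4f39, were at background level in both groups, where Cyp4f14 (-0.76) and Cyp4f39 (-0.78) passed the test as lower. Because P450 genes of a cluster are alike in sequence, a probe set can also take signal from a neighbour.

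Of the 6 genes that act on cholesterol and bile acids, 3 passed the test as lower and 1 as higher, against 23.8% and 22.6% of all genes. Of the genes called lower, Cyp7a1 and Cyp7b1 were at background level in both groups. Cyp27a1, the mitochondrial sterol 27-hydroxylase, had 3.98, 4.98 and 5.43 in DFAT cells and 8.56, 8.96 and 8.98 in AC. Its DFAT values were spread but all at background level. The difference was -4.03 (95% confidence interval -4.83 to -3.24, adjusted p = 4.68e-05 from limma), or -3.08 with the floor. Its other probe set, which ends in _x_at, was at background level in both groups, with a difference of -0.061. Cyp39a1, an oxysterol 7-hydroxylase, had 6.05, 5.77 and 5.75 in DFAT cells and 4.13, 4.23 and 4.38 in AC. It passed the test as higher, by 1.61 (adjusted p = 6.8e-05 from limma), but lay above background level on only 2 of the 3 DFAT arrays. With the floor the call was lost, at a difference of -0.084, where a gene at background level throughout has -0.19. Cyp7a1, the first enzyme of bile acid synthesis, did not exceed background level on any array at either of its probe sets, with 4.02, 3.82 and 4.19 in DFAT cells and 4.81, 4.43 and 4.56 in AC at the brighter one. Its call as lower there (difference -0.59, adjusted p = 0.0211 from limma) rests on values under the background level, and the second probe set did not pass the test.

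The vitamin D enzymes Cyp2r1, Cyp24a1 and Cyp27b1 were all at background level in both groups, where Cyp2r1 passed the test as lower (difference -1.40). Cyp24a1 passed as lower only at its second probe set, also at background level in both groups (-0.80, adjusted p = 0.0084 from limma). At background level in both groups were also 4 of the 5 genes of steroid hormone synthesis, and none of the 5 passed the test, with differences from -0.27 to 0.52. Cyp26b1, which clears retinoic acid, had 6.22, 6.50 and 6.46 in DFAT cells and 5.85, 5.84 and 5.91 in AC, a difference of 0.53 (95% confidence interval 0.22 to 0.84, adjusted p = 0.0155 from limma). Without DFAT replicate 2 the difference was 0.47 (adjusted p = 0.0783 from limma) and without DFAT replicate 3 it was 0.50 (adjusted p = 0.072 from limma), so the size was similar and the call was lost. Cyp26a1 was at background level in both groups. Cyp20a1, an orphan enzyme with no settled substrate, was above background level on all 6 arrays, with 10.15, 9.95 and 10.10 in DFAT cells and 8.51, 9.20 and 9.17 in AC. It rose by 1.10 on the log2 scale (95% confidence interval 0.63 to 1.58, adjusted p = 0.00333 from limma). A second probe set, above background level on only 1 AC array, rose by 1.56. The third was at background level in both groups and did not pass the test (difference 0.39, adjusted p = 0.125 from limma).

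Outside the 13 genes, 57 remained. Of these, 44 did not pass the test, with differences from -0.48 to 0.52, and 12 passed as lower and 1 as higher. Among the 12, 10 were at background level in both groups, with differences from -1.40 to -0.47, and the others were Cyp1a1 and Cyp2c23. In 4 clusters, of 10 Cyp2c, 4 Cyp3a, 4 Cyp2b and Cyp2s genes and the 3 genes Cyp1a2, Cyp1a1 and Cyp11a1, no member was above background level on all arrays of a group.

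**Figure D2:**
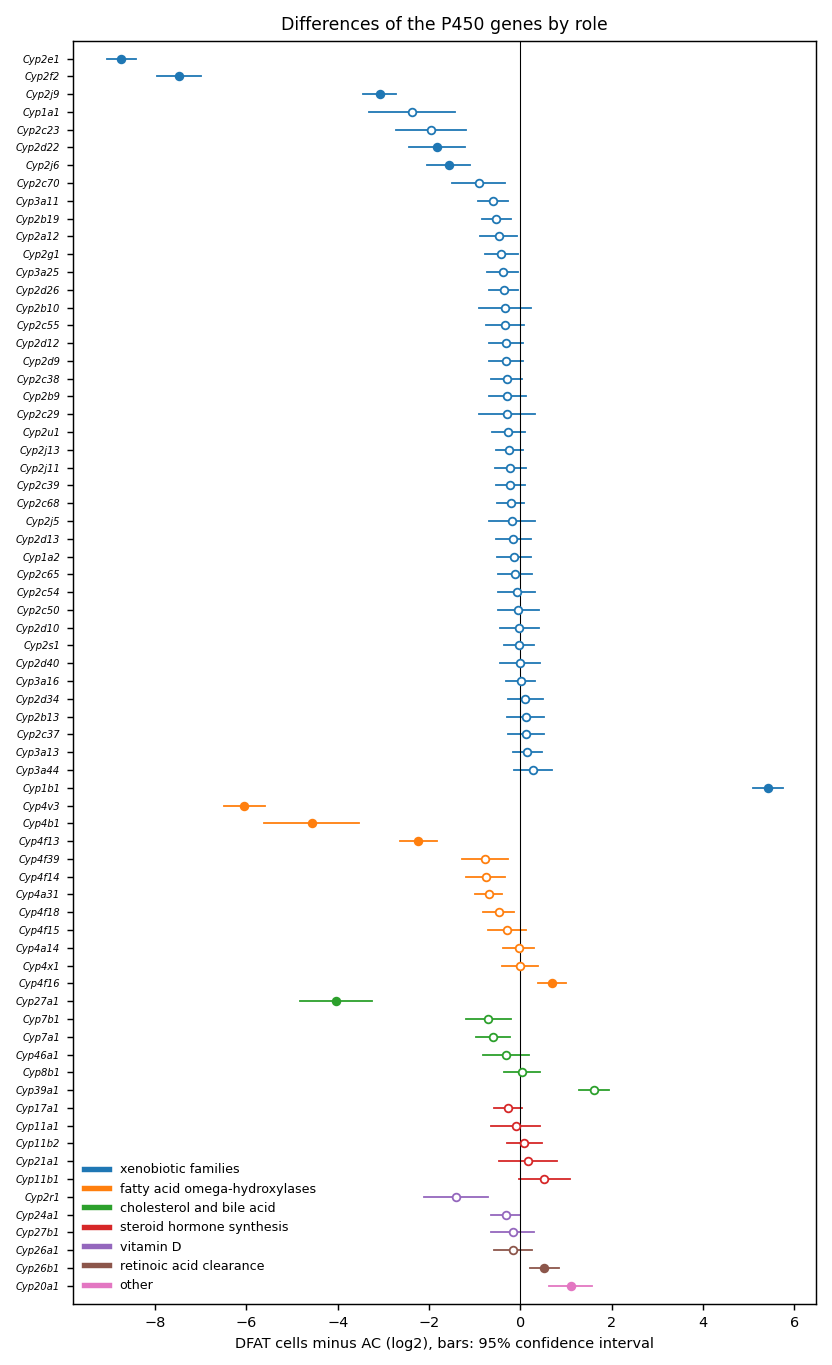
Differences of the 70 P450 genes, DFAT cells minus AC on the log2 scale, by role. Points are limma estimates from 3 arrays a group, lines are 95% confidence intervals, and filled points are the 13 genes above background level on all arrays of a group. Most open points lie within 1 of 0, while filled points run from -8.74 for Cyp2e1 to 5.42 for Cyp1b1. Points were filled by signal, and 51 of the 57 open genes were at background level in both groups. The wider range of the filled points thus follows in part from that choice.

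Among the P450 enzymes that the study measured in its induced cells, Cyp1a2, Cyp2e1 and Cyp7a1 were analysed here. The induced cells had been transduced with Foxa2, Hnf4a and Sall1, and the DFAT cells on the arrays had not. The arrays therefore do not give the state at the start of induction. None of these enzymes exceeded background level on a DFAT array, and of these only Cyp2e1 did so in AC. Cyp2a5 has no probe set with its symbol alone and was not analysed here. Of 17 measured hepatocyte markers, background level held 15 in DFAT cells and 13 in AC. Albumin (Alb) was the exception with the largest difference, with 3.85, 4.01 and 3.66 in DFAT cells and 9.29, 9.67 and 9.92 in AC.

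Several P450 genes differed between AC replicate 1 and the other AC arrays, and so did markers of other cells in fat tissue. The hybridization controls differed as well, with means of 11.78 on that array and 11.26 and 11.18 on AC replicates 2 and 3. On that array Cyp4b1, Cyp1a1 and Cyp2d22 were above the mean of the other AC arrays by 1.82, 1.53 and 0.93. The mean of 18 endothelial markers was higher there by 1.77 and that of 16 epithelial and mammary markers by 0.69. Cyp2c23 was lower on that array, by 1.23 on the log2 scale, and Cyp4v3 by 0.55 or, at its second probe set, by 1.85. Probe sets of a gene did not always go together there. Cyp20a1 was lower by 0.68 but higher by 0.43 at its second probe set. Cyp2j6 was higher by 0.18 but lower by 1.05 at its second. The mean of 18 macrophage markers was lower there by 1.61, while 17 white adipocyte markers were lower by 0.13. Cyp2e1 and Cyp2f2 were higher there by 0.087 and 0.27. Endothelial markers averaged 4.37 to 4.39 on the DFAT arrays, with 14 of 18 at background level, and 7.82 to 9.65 on the AC arrays. Macrophage markers averaged 4.15 to 4.26 in DFAT cells, with 15 of 18 at background level, and 6.32 to 7.95 in AC. Epithelial and mammary markers averaged 4.51 to 4.63 in DFAT cells, with 12 of 16 at background level, and 8.38 to 9.08 in AC. The part of these cells in the P450 levels of AC was not tested.

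**Figure D3:**
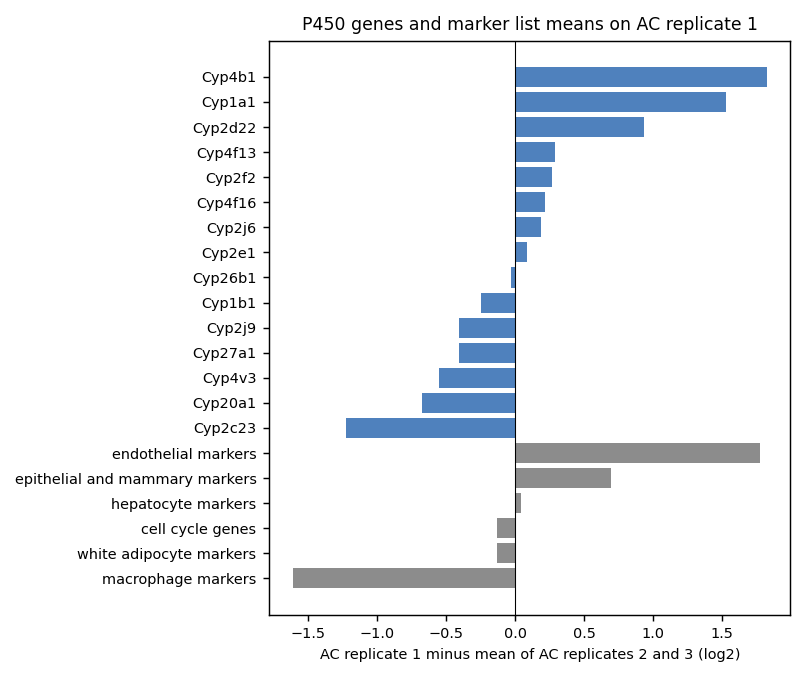
Value on the array of AC replicate 1 minus the mean of AC replicates 2 and 3, on the log2 scale, for 15 P450 genes (blue) and for the means of 6 marker lists (grey). Cyp4b1 (1.82) and Cyp1a1 (1.53) lie on the side of the endothelial markers (1.77), and Cyp2c23 (-1.23) on that of the macrophage markers (-1.61). A link between the genes and the markers was not tested.

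P450 enzymes depend on electron donors and haem. Of 7 measured electron donors and binding partners, all above background level on every array, 4 fell and 2 rose, where 23.8% of all genes were called lower and 22.6% higher. Fdx1, the ferredoxin of mitochondrial P450 enzymes, had 9.39, 9.46 and 9.39 in DFAT cells and 10.59, 10.99 and 11.22 in AC, a difference of -1.52 (adjusted p = 0.00027 from limma). Cyb5b, the cytochrome b5 of the outer mitochondrial membrane, fell by 1.07 on the log2 scale, and the reductase Cyb5r1 rose by 0.90. Por, the P450 reductase itself, was not analysed here. Of 12 genes of haem synthesis and breakdown, 2 rose and 6 fell, while 4 stayed short of the threshold, beside the same shares of all genes. Alas1, the rate-limiting enzyme of haem synthesis outside red cells, had 8.69, 8.63 and 8.70 in DFAT cells and 10.16, 11.05 and 10.81 in AC, which is 3.99-fold lower (adjusted p = 0.000228 from limma). Alas2, its counterpart in red cell precursors, fell by 3.01 to background level, with a difference of -1.33 with the floor. Cpox, a later enzyme of the same pathway, went the other way and rose by 2.13, or 1.25 with the floor, since it was at background level in AC.

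Of 24 regulators known to act on P450 genes, 13 passed the test as lower, 2 as higher and 9 did not pass, against 23.8% lower and 22.6% higher among all genes. Among the 13, Ahrr, Rarb and Nr5a2 were at background level in both groups. With the floor the call of Hnf4a as lower was lost (-0.38, adjusted p = 0.0991 from limma). So was that of Rara, 1 of the 2 called higher (0.034, adjusted p = 0.814 from limma). AHR, the receptor that induces family 1, had 5.46, 5.32 and 5.56 in DFAT cells and 8.43, 6.48 and 6.43 in AC (gene Ahr, difference -1.66, adjusted p = 0.0288 from limma). It was at background level in DFAT cells, and without AC replicate 1 the difference was -1.004 (adjusted p = 0.0003 from limma). The call of Ahr was lost without DFAT replicate 1, 2 or 3, with adjusted p from 0.0714 to 0.0858 in limma. Its partner Arnt did not pass the test (difference -0.20), but passed as lower without AC replicate 1 (-0.34, adjusted p = 0.0447 from limma). Tiparp, a target and repressor of AHR, had 7.91, 7.79 and 7.97 in DFAT cells and 10.29, 12.07 and 12.13 in AC, a difference of -3.60 (adjusted p = 0.000395 from limma), and of -4.20 without AC replicate 1. Nr1h3, the oxysterol receptor LXR alpha, fell by 2.96. Vdr, the vitamin D receptor, which induces Cyp24a1 when activated, had 9.42, 9.32 and 9.39 in DFAT cells and 6.82, 5.61 and 5.22 in AC, a rise of 3.49 (adjusted p = 0.000148 from limma), while Cyp24a1 stayed at background level in both groups. The receptors Nr1i2 (PXR) and Nr1i3 (CAR), which induce Cyp3a and Cyp2b genes in liver, were at background level in both groups and did not pass the test.

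Epoxide hydrolases act on the epoxides that P450 enzymes make. Ephx2, the soluble form, had 4.14, 3.55 and 3.74 in DFAT cells and 11.61, 11.09 and 11.03 in AC, a difference of -7.43 (adjusted p = 1.94e-07 from limma). It was at background level in DFAT cells, and with the floor the difference was -5.49. Ephx1, the microsomal form, had 11.01, 11.09 and 11.10 in DFAT cells and 9.91, 9.15 and 9.32 in AC, a rise of 1.60 (adjusted p = 0.000438 from limma). Cyp51, the P450 enzyme of cholesterol synthesis that the symbol rule leaves out, rose by 1.98 (adjusted p = 0.00203 from limma). Ptgis and Tbxas1, the P450 enzymes of prostacyclin and thromboxane synthesis, were at background level in both groups.

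**Figure D4:**
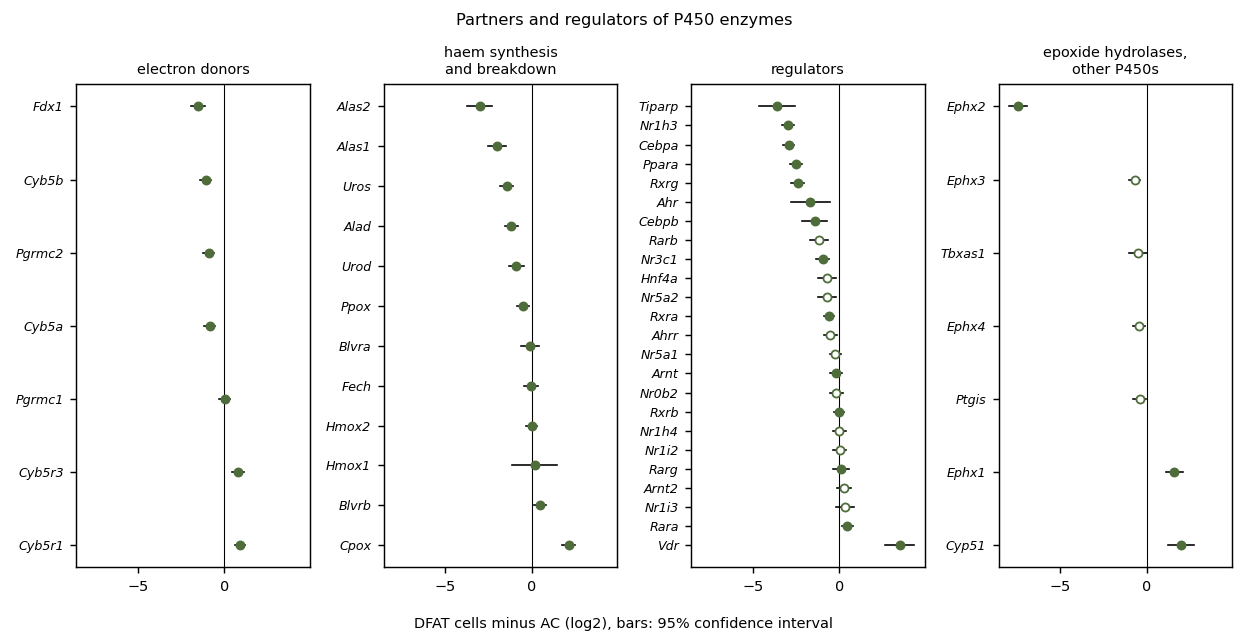
Differences, DFAT cells minus AC on the log2 scale, of 7 electron donors, 12 haem genes, 24 regulators and 7 epoxide hydrolases and P450 genes outside the symbol rule. Points are limma estimates from 3 arrays a group, lines are 95% confidence intervals, and filled points lay above background level on all arrays of a group. Ephx2 (-7.43) and Tiparp (-3.60) show the largest falls and Vdr (3.49) the largest rise in these lists.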

How the data were processed

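The authors labelled RNA of AC and DFAT cells, hybridized it to the arrays and normalized the scanner data with RMA in R (package affy), named without a version. RMA corrects the background, brings arrays to one distribution and gives 1 value a probe set, so the deposited values are on the log2 scale. The set of arrays that entered one normalization is not stated in the text or labels. Array medians were 4.92 to 4.94 for DFAT cells and 4.98 to 5.11 for AC, and the number of arrays limits the precision.

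Probe sets were named by the platform annotation, and all 70 P450 genes were found by Entrez ID in RefSeq (GRCm38.p6), used for names, neighbours (P450 genes less than 300 kb apart) and promoters. The 64 control probe sets and 3 P450 probe sets with several symbols were left out. Groups came from the sample titles. The comparison, DFAT cells minus AC, was fitted with limma 3.58.1 under R 4.3.3 (lmFit, eBayes, two-sided, Benjamini-Hochberg over 45037 probe sets, threshold 0.05). The fit was tested on simulated data. Members and lists were chosen with earlier results of these data known. Genes were named where the probe set with the highest mean was above background level on all arrays of a group, besides the enzymes the study measured, the 3 largest changes of each partner list, and exceptions named after their values were seen, as were the promoters and motifs shown. Of 18 P450 genes with several probe sets, all had the same call in 9 and none had opposite calls. Alternatives were other scalings, a floor at background level, leaving out dim probe sets or each array, other variance models, array weights, a block for the replicate number, other choices of probe set, a 4-fold rule and an unmoderated test. Python 3.11.15 was used for tables and figures.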

Additional observations from a re-analysis of the deposited data

How the results depend on the processing

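The counts of P450 genes, 21 lower and 5 higher in DFAT cells, and of their partner and regulator genes, 26 lower and 8 higher, depended on scaling. Centred on the reference genes, 50 P450 genes were lower and 3 higher. Centred on the hybridization controls, 11 P450 genes and 11 partners were lower. With the floor at background level, under which the 51 genes at that level in both groups cannot be called, 9 P450 genes were lower, and with dim probe sets left out 10 of the 18 genes kept were. Without probe sets ending in _x_at, _s_at or _a_at, 5 partners were higher. By the 4-fold rule, 8 P450 genes were lower and 1 higher, and 7 partners were lower and 2 higher. Leaving out each array in turn gave 13 to 23 P450 genes lower and 4 to 6 higher, and 20 to 31 partners lower and 6 to 8 higher. The lowest count of P450 genes, 13, was that without DFAT replicate 2. The 9 falls described by name kept their call under every tested setting that held the gene (2 settings left out Cyp2j9 or Cyp2f2), although Cyp2d22 and Cyp2j6 did not reach 4-fold. These genes were chosen by signal on the same arrays. Of them, 8 were above background level in AC and at it in DFAT cells, a choice that favours keeping the call. Cyp39a1 reversed, to -0.084, with the floor, which by itself sets a gene at background level throughout to -0.19. The causes of the other changes were not tested. At the 90th and 99th percentiles, background level held 54 and 64 P450 genes in DFAT cells, and 49 and 57 in AC. With the replicate number as a block, 20 P450 genes were lower and 5 higher, and no call of the 13 named genes changed. Same-numbered arrays did not deviate together, with correlations of -0.02, -0.03 and 0.01. Deviations from the mean of 3 arrays, with AC replicate 1 apart from the others, cannot decide whether arrays were paired.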
